A study of Mus musculus with 3 samples.

Results

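The genes that sense, edit and destroy nucleic acids in the cytosol were examined as a group of 7, named by their function and not by their values: the RNA helicase sensors Ddx58 (RIG-I), Ifih1 (MDA5) and Dhx58 (LGP2), the adaptor Mavs, the RNA-dependent kinase Eif2ak2 (PKR), the RNA editing enzyme Adar and the DNA exonuclease Trex1. All 7 were found by symbol among 55536 genes, of which 20685 had TPM above 0 in at least 1 library. The data were total RNA sequencing, after removal of ribosomal RNA, of the cytosolic fraction of macrophages grown from the bone marrow of strain C57BL/6J, with 3 libraries of 1 group. All cells had met lipid A, the Tlr4-binding part of bacterial lipopolysaccharide, at 100 ng/ml for 12 hours, had then been kept without it for 12 hours, and were stimulated again at 100 ng/ml for 60 minutes. Sex and age were not recorded, the 3 samples stand under the same donor entry, and it is not stated whether they came from separate animals, so a p-value here measures only the spread between these samples. No untreated or once-treated cells were analysed here, and every value below is a level, not a response.

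RIG-I and MDA5 bind double-stranded or otherwise foreign RNA and then join Mavs on the mitochondrial membrane, from which kinases activate the transcription factors Irf3 and Irf7 and the gene for interferon beta. LGP2 is a relative of both that lacks the signalling domains and tunes them. PKR stops translation by phosphorylating eIF2α when it binds double-stranded RNA, Adar converts adenosine to inosine in such RNA so that the cell's own duplexes are not sensed, and Trex1 degrades DNA in the cytosol. In macrophages lipid A itself induces interferon beta, and most of these genes are known interferon-stimulated genes.

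Stretches of DNA that interferon-activated factors are known to recognise are shown here because they set several of the members side by side. RefSeq windows on GRCm38.p6, each from 250 bases before to 50 bases after an annotated start, were present for 6 of the 7 members (9 windows). They were searched on both strands for AANNGAAA, the core read by interferon regulatory factors, for a double GAAA motif (GAAA, any 2 bases, GAAA), which contains that core, and for TTCNNNGAA, the site read by STAT dimers. The 4 windows below carry the first or second motif, shown in capitals in the direction of the gene.
Ddx58, chr4:40239866-40239895, minus strand: tctaggttcagAAACGAAActggatccccg
Ifih1, chr2:62646206-62646235, minus strand: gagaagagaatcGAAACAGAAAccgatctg
Eif2ak2, chr17:78882535-78882564, minus strand: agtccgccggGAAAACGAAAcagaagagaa
Adar, inner start site, chr3:89730736-89730765, plus strand: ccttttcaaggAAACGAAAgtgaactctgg

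The match in Ddx58 began 59 bases before the RefSeq start. Counted with the RefSeq start as the first base, those in Ifih1, Eif2ak2 and the inner Adar start began at bases 33, 19 and 30. RefSeq starts can differ from those of the transcripts quantified below. For Ifih1 the RefSeq start was position 62646255 and that of Ifih1-201 was 62646211. For the inner Adar start the positions were 89730718 and 89730748. In Ddx58 and Ifih1 a second core match was found, in Ddx58 within a double GAAA match on the opposite strand. AANNGAAA occurred in 23.9%, the double GAAA motif in 3.44% and TTCNNNGAA in 8.3% of 32851 windows of all genes. TTCNNNGAA was matched at Eif2ak2, 178 bases before the start, and at the inner Adar start. None of the 3 motifs was found in the window of Mavs, in the windows of the 2 outer Adar starts or in the windows of the 2 Trex1 starts. A match describes the letters only and was not tied to any factor.

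Expected counts (reads assigned to a gene, fractional where a read fits several) totalled 50807046, 53364168 and 46546422 in replicates 1, 2 and 3. Levels are given as TPM, reads per kilobase of effective length scaled to a fixed total, which allows genes to be compared within a library. All 7 macrophage markers listed stood above 1 TPM, with a summed level of 4601 to 6286 TPM, while the neutrophil, T and NK, B, dendritic and erythroid lists summed to at most 0.89 TPM in any library. The stromal list summed to 0.06, 2.36 and 0.95 TPM in replicates 1, 2 and 3. Nuclear RNA was not level between libraries: Malat1 stood at 112, 90.6 and 452 TPM in the same order. Coding genes of the nuclear genome held 34.5%, 29% and 27.5% of TPM, and other scales are therefore given beside TPM where libraries are compared.

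All 7 members stood above 1 TPM (limma on log2(TPM + 1), Benjamini-Hochberg adjusted p from 1.9e-08 to 2.1e-07), as did 44.5% of the genes tested. The median of their mean TPM was 47.8, and that of all genes tested was 0.68. Counts were large enough that counting error was at most 2.07% for any member in any library, the largest being for Mavs.

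**Figure D1:**
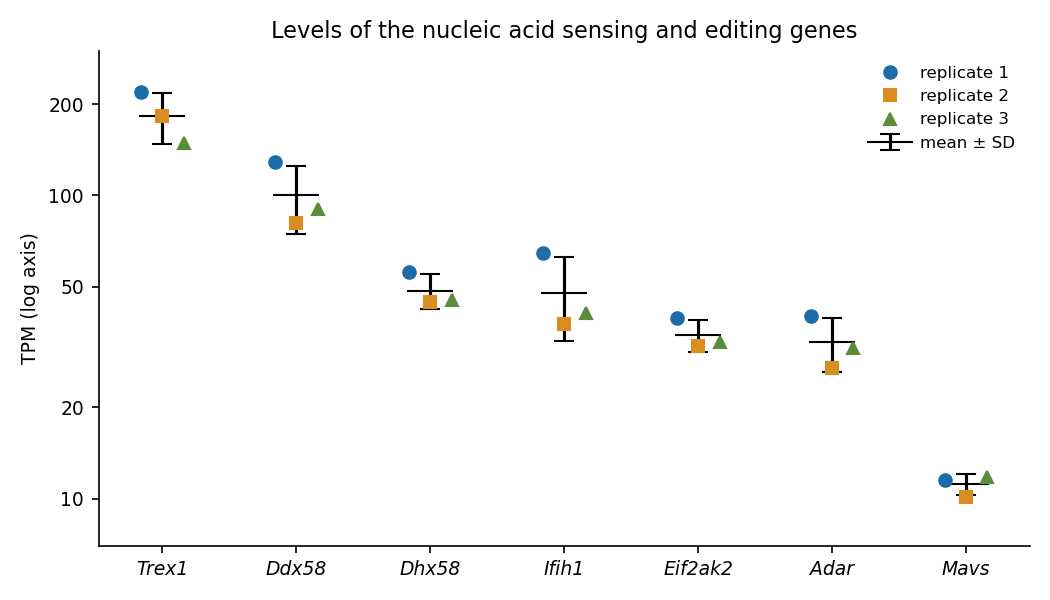
TPM (log axis) of the 7 members in replicates 1 to 3, in order of their mean, with bars for the mean and SD over 3 libraries. Trex1 was highest at a mean of 183 TPM and Mavs lowest at 11.2 TPM, and the other 5 members lie between them.

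Among the sensors, Ddx58 was the most abundant. Ddx58 (ENSMUSG00000040296.15, chromosome 4, 40203773 to 40239828, mm10) stood at 129, 81.2 and 90.2 TPM in replicates 1, 2 and 3, or 100 ± 25.4 (SD, n = 3). Ifih1 (ENSMUSG00000026896.14, chromosome 2, 62595798 to 62646255) stood at 64.8, 37.6 and 41.0 TPM, or 47.8 ± 14.8. Both were highest in replicate 1 and lowest in replicate 2. Dhx58 (ENSMUSG00000017830.15, chromosome 11, 100694884 to 100704271) was more even, at 55.9, 44.5 and 45.2 TPM, or 48.5 ± 6.38.

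The ratio of Ddx58 to Ifih1 TPM was 1.99, 2.16 and 2.20 in the 3 libraries, a mean of 2.12 ± 0.11, so the pair kept nearly the same proportion while both varied. In a second quantification of the same reads this ratio was lower, at 1.68, 1.73 and 1.79, or 1.73 ± 0.0553. Ddx58 exceeded Dhx58 by a ratio of 2.05 ± 0.246. The ratio of Ifih1 to Dhx58 lay on both sides of equality, at 1.16, 0.847 and 0.907, and these sensors were not separated beyond their spread.

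The adaptor that both signalling helicases need was the least abundant member. Mavs (ENSMUSG00000037523.13, chromosome 2, 131234063 to 131248025) stood at 11.5, 10.1 and 11.8 TPM in replicates 1, 2 and 3, or 11.2 ± 0.902 (SD, n = 3). It was the only member that was not highest in replicate 1. In TPM, which is per length, Ddx58 exceeded Mavs by ratios of 11.2, 8.03 and 7.65, and Ifih1 exceeded it by 5.62, 3.72 and 3.47. By the second quantification these ratios were 11.1, 8.04 and 7.84 for Ddx58 and 6.60, 4.66 and 4.38 for Ifih1. The excess of each sensor over the adaptor was therefore largest in replicate 1, where the sensors were highest and Mavs was not.

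The double-stranded RNA effectors stood at similar levels. Eif2ak2 (ENSMUSG00000024079.4, chromosome 17, 78852564 to 78882573) stood at 39.5, 31.8 and 32.8 TPM, or 34.7 ± 4.18 (SD, n = 3). Adar (ENSMUSG00000027951.16, chromosome 3, 89715022 to 89753446) stood at 40.1, 26.9 and 31.5 TPM, or 32.8 ± 6.67. The ratio of Eif2ak2 to Adar was 0.986, 1.18 and 1.04, so the kinase and the editing enzyme were not separated.

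Trex1 was the highest member in every library. Trex1 (ENSMUSG00000049734.9, chromosome 9, 109057933 to 109059734), a gene of 1802 bases, stood at 219, 183 and 149 TPM, or 183 ± 35.0 (SD, n = 3). Unlike the others it was lowest in replicate 3. It lies wholly inside the span of Atrip on the same strand, which was listed at 1.78, 1.53 and 1.83 TPM. How reads within the shared span were divided between Trex1 and Atrip was not tested.

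In the order Trex1, Ddx58, Dhx58, Ifih1, Eif2ak2, Adar and Mavs, neighbours kept their order in every library in 4 of 6 pairs. The ranges over libraries did not overlap between Trex1 and Ddx58 (1.84-fold on the mean log2 scale), Ddx58 and Dhx58 (2.04-fold) or Adar and Mavs (2.91-fold). They overlapped between Dhx58 and Ifih1, Ifih1 and Eif2ak2, and Eif2ak2 and Adar. Within each library, however, Ifih1 exceeded Eif2ak2, by log2 ratios of 0.71, 0.24 and 0.32 in replicates 1, 2 and 3. By the second quantification these were 0.90, 0.52 and 0.56, and the ranges of that pair did not overlap. With 3 libraries an exact two-sided sign-flip test cannot go below p = 0.25, so no p is given for these ratios. Of the genes on the other strand of a member, Gm26637 at Eif2ak2 stood at 1.38 ± 0.266 TPM, Chrnb2 at Adar at 0.233 ± 0.0737 and Dhx58os at Dhx58 at 0.0233 ± 0.00577, all far below the member, and reads of such pairs cannot be told apart without a stated strand setting.

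All 7 members varied between libraries by more than counting noise (chi-square test on rounded counts, 2 degrees of freedom, adjusted over all genes tested), but so did 69.3% of 13075 genes. The chi-square was 1444 for Ddx58 and 1304 for Ifih1, then 401 for Adar, 280 for Trex1, 71.9 for Mavs, 25.3 for Dhx58 and 23.8 for Eif2ak2. The coefficient of variation of TPM was 30.9% for Ifih1 and 25.4% for Ddx58, above 92.5% and 86.9% of the 4132 genes with mean TPM 10 or more, whose median was 13.4%. It was 20.3% for Adar and 19.1% for Trex1, above 77.6% and 74.7% of those genes, and 13.2% for Dhx58, 12.0% for Eif2ak2 and 8.09% for Mavs, below their median. This order depended on the scale: with TPM rescaled over coding genes the coefficient was 18.9% for Ifih1, 14.3% for Ddx58 and 13.8% for Mavs, and by the second quantification it was 16.4% for Trex1, 15.2% for Ifih1 and 12.6% for Ddx58. Dhx58 and Eif2ak2 were the most even members on both of these scales, at 1.26% to 4.22%. Without replicate 3, Mavs and Trex1 no longer passed (adjusted p = 0.61 and 0.17 by chi-square), Dhx58 did not without replicate 1 (0.31), and Eif2ak2 did not without replicate 2 (0.15). Of all genes tested, 53.9%, 51.6% and 51.3% passed without replicates 3, 1 and 2.

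On the TPM scale 6 of 7 members were highest in replicate 1, and so were 67.8% of the 9774 genes with mean TPM 1 or more. The median gene stood 0.19 higher on the log2 scale in replicate 1 than in the mean of replicates 2 and 3. Under TMM scaling, where that median was 0.02, the same count was 6 of 7 against 37.3% of genes, and over DESeq2 size factors 6 of 7 against 36.7%. With TPM rescaled over coding genes it was 4 of 7 against 20.6%, and by the second quantification it was 4 of 7 against 18.6%. Ddx58, Ifih1 and Adar were highest in replicate 1 on all 5 scales examined and Mavs was highest in replicate 3 on all 5, while Dhx58, Eif2ak2 and Trex1 changed their highest library with the scale.

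By size, Ifih1 was higher in replicate 1 than in the mean of the others by 0.72 on the log2 scale of TPM, 0.50 under TMM and 0.43 after rescaling over coding genes. For Ddx58 the same differences were 0.59, 0.42 and 0.30. For Adar they were 0.45, 0.28 and 0.16. Mavs gave 0.07, −0.10 and −0.22, changing sign with the scale but lying below the median gene on all of them. Earlier work on these libraries had shown interferon-stimulated genes to be high in replicate 1, so this pattern is no independent evidence. In bulk RNA, fewer cells that express a gene and less RNA per cell cannot be told apart.

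**Figure D2:**
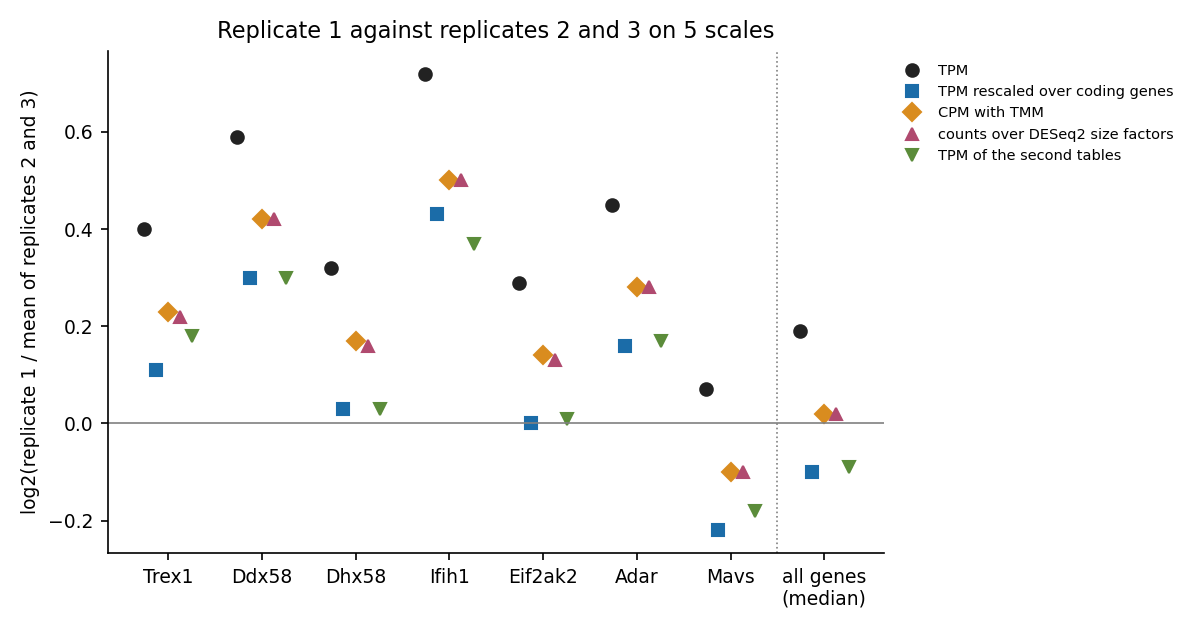
The log2 ratio of replicate 1 to the mean of replicates 2 and 3 for each member, and the median over genes with mean TPM 1 or more, on 5 scales. Ddx58 and Ifih1 lie above zero and above the median gene on every scale, whereas Mavs lies below the median gene on every scale.

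Adar RNA was assigned almost wholly to transcripts annotated at its inner start site. As background, the interferon-inducible promoter of Adar gives its long protein form, which is found in the cytoplasm, and its constitutive promoter gives a shorter form that is mostly nuclear. In the annotation, Adar-202 (930 codons) starts at the outer site, position 89715022 of chromosome 3, and Adar-203 (1178 codons), Adar-201 (1152 codons), Adar-205 (634 codons) and Adar-204 (660 codons) start at the inner site, position 89730748, 15.7 kb downstream. The AAACGAAA match printed above lies in the window of the nearby RefSeq start, position 89730718.

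**Figure D3:**
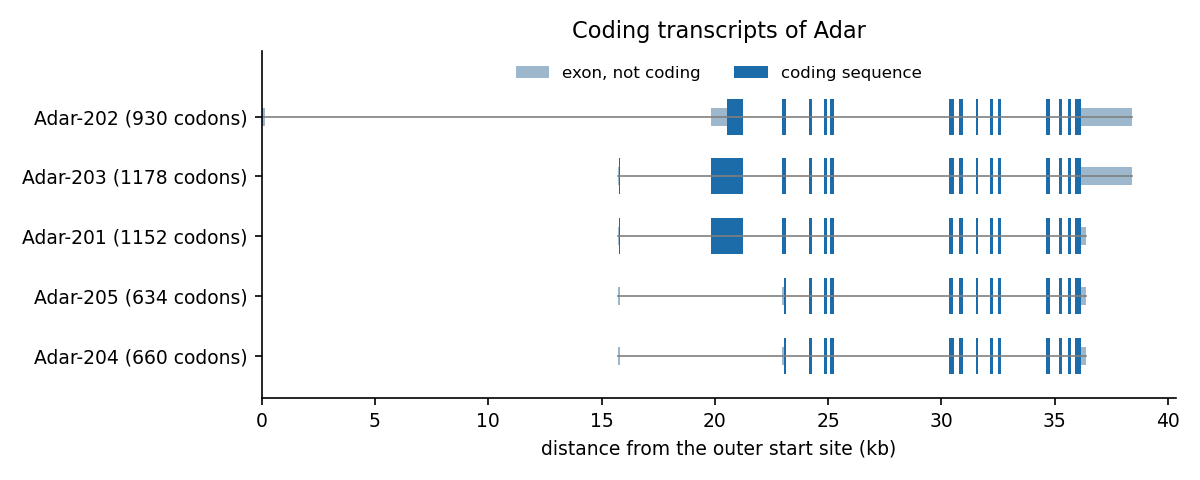
Coding transcripts of Adar, drawn to scale as distance from the outer start site in kb, with coding sequence in dark and other exon sequence in pale blue. Adar-202 begins at the outer site and its coding sequence begins inside the large exon that Adar-203 and Adar-201 read in full from the inner site.

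Coding transcripts from the inner start held 94.2%, 90.5% and 89.0% of Adar abundance in replicates 1, 2 and 3, or 91.2% ± 2.64 (SD, n = 3). In the second set of tables, quantified from the reads by a separate route, they held 93.1%, 88.3% and 86.8%. Adar-202 held 5.04%, 8.52% and 8.72% in the first tables and 5.95%, 10.9% and 10.2% in the second. Both routes, run on the same reads, therefore assigned nearly all cytosolic Adar RNA to the inner start and gave its share as highest in replicate 1. In the annotation Adar-202 and Adar-203 differ only in their first exon, so reads of the other exons do not tell these 2 transcripts apart. The other outer RefSeq start, position 89715238, begins no coding transcript in this annotation, so RNA from it had no share of its own.

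In TPM the starts moved differently over libraries. The inner-start coding transcripts stood at 37.7, 24.4 and 28.1 TPM, highest in replicate 1. Adar-202 stood at 2.02, 2.29 and 2.75 TPM, lowest in replicate 1, and was also lowest there in the second tables at 0.94, 1.46 and 1.49 TPM. The higher Adar level in replicate 1 thus lay in the inner-start transcripts. These shares are of the cytosolic fraction, and RNA left in the nucleus was not measured.

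How the inner-start RNA was divided among its transcripts depended on the tables. Adar-203 and Adar-201 differ in their 3' ends and in 78 coding bases (26 codons) at the end of exon 7, chr3:89745524-89745601 on the plus strand, that Adar-203 holds and Adar-201 lacks. The segment, from the GENCODE transcript sequence, is shown as the coding difference between this pair. Adar-202 and Adar-204 also hold it, and Adar-205 lacks it.
Adar-203 segment: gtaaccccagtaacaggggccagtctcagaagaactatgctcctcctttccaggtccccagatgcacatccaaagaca

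Adar-203 held 52.4% ± 1.11 of Adar abundance in the first tables and 36.3% ± 3.78 in the second (SD, n = 3). Adar-201 held 20.6% ± 3.28 and 51.1% ± 1.29. The ratio of Adar-203 to Adar-201 TPM was 2.59 ± 0.383 by the first route and 0.711 ± 0.0895 by the second, so the leading form could not be settled. Adar-205, which lacks the large second exon, held 18.3% ± 1.90 in the first tables and 1.97% ± 0.448 in the second. The full-length pair together held 72.9% ± 4.0 and 87.4% ± 2.89.

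Ifih1 had the same kind of disagreement. Ifih1-201 (1025 codons) and Ifih1-202 (976 codons) differ by exon 3 of 16, a segment of 147 bases (49 codons) at chr2:62635056-62635202 on the minus strand, and in both transcript ends. The segment is the coding part that Ifih1-202 lacks.
Ifih1-201 segment: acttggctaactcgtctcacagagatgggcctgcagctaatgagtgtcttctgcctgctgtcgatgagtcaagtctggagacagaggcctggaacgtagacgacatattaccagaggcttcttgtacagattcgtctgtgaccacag

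Ifih1-201 held 60.6%, 65.9% and 70.2% of Ifih1 abundance in replicates 1, 2 and 3 in the first tables, but 35.0%, 31.7% and 35.5% in the second. Ifih1-202 held 35.0%, 29.1% and 24.5% in the first and 55.7%, 56.3% and 51.9% in the second. No library reversed the order within either set of tables. The difference between the tables was thus larger than the spread between libraries.

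**Figure D4:**
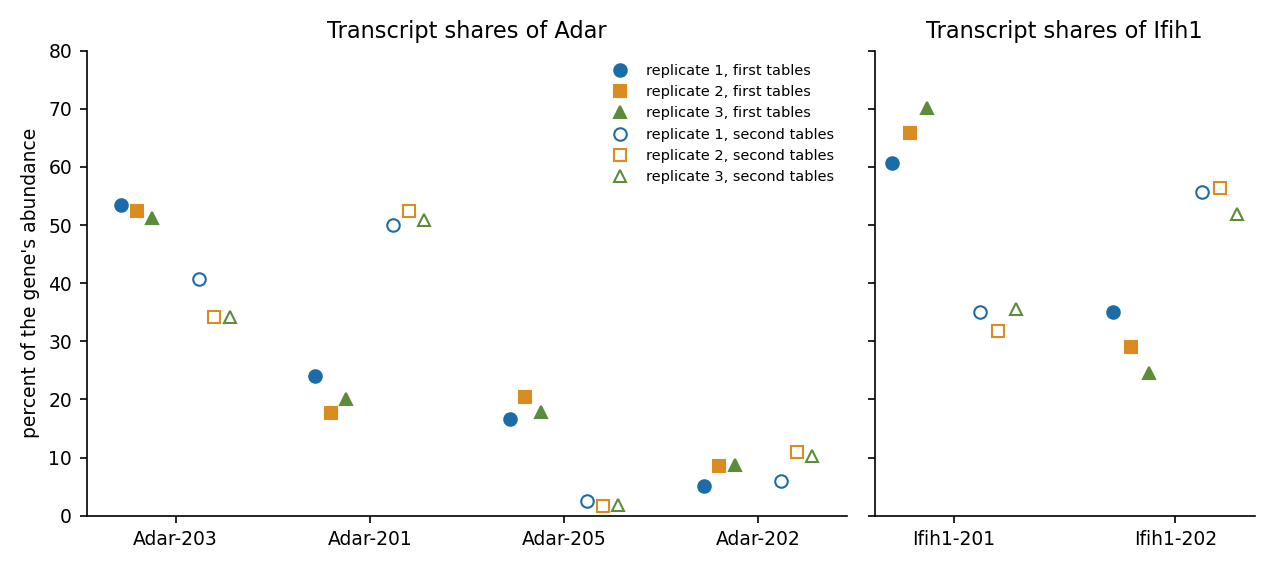
Percent of gene abundance in the main transcripts of Adar and Ifih1 in each library, filled symbols for the first tables and open symbols for the second. Adar-203 and Ifih1-201 lead in the first tables and Adar-201 and Ifih1-202 in the second, while Adar-202 stays at 5.04% to 10.9% in both.

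The other members kept 1 leading transcript in both sets of tables. Trex1-202, which starts at position 109059251 of chromosome 9, held 81.7% ± 1.09 in the first tables and 81.2% ± 0.802 in the second (SD, n = 3), and Trex1-201, which starts at position 109059734, held the rest. Both encode the same 314 codons, so the split concerns the start site and not the protein. Mavs-201 held 68.2% ± 2.90 and 61.2% ± 1.25, Mavs-202, with the same 503 codons, 24.7% ± 2.84 and 30.3% ± 1.42, and the nonsense-mediated decay transcript Mavs-203 held 7.07% ± 1.96 and 8.5% ± 1.81. Eif2ak2-201 held 94.8% ± 1.93 and 93.2% ± 3.07, and Dhx58-201 held 95.0% ± 2.57 and 90.0% ± 4.80. Ddx58-201, the full-length form of 926 codons, held 74.8% ± 0.503 and 86.0% ± 1.56. Most of the rest of Ddx58 was Ddx58-205, annotated without a coding sequence and starting within the gene, at 23.4% ± 0.832 and 10.9% ± 1.52. On the minus strand its 3' end, position 40203777, lies beyond that of Ddx58-201, position 40204849. Reads past the end of Ddx58-201 could therefore be assigned to Ddx58-205 but not to Ddx58-201, and which RNA they came from was not tested.

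Transcripts annotated as non-coding or as retaining an intron took their largest share in replicate 3 for Ifih1, Dhx58, Eif2ak2 and Adar, which is 4 of the 5 members with any such share, beside 53.5% of 3070 coding genes. For Dhx58 the share was 3.57%, 3.38% and 7.93% in replicates 1, 2 and 3. For Eif2ak2 it was 4.11%, 4.01% and 7.39%, and for Adar 0.78%, 0.97% and 2.25%. Ddx58 was level at 25.6%, 24.5% and 25.4%. Over these 3070 coding genes, which had mean TPM 10 or more and some such share, the median share was 1.13%, 1.02% and 1.80%.

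By the second route all 5 members were highest in replicate 3. So were 61.3% of coding genes with mean TPM 10 or more and some such share. Dhx58 stood at 7.84%, 6.71% and 15.5%, Eif2ak2 at 5.01%, 5.13% and 10.4%, and Adar at 0.935%, 0.775% and 3.00%. Ddx58 at 14.5%, 11.7% and 14.7% and Ifih1 at 9.27%, 12.0% and 12.5% were only slightly higher there than in their next library. Replicate 3 was also the library in which the nuclear RNA Neat1 stood at 29.7 TPM, against 10.9 in replicate 1 and 7.1 in replicate 2. The part that nuclear RNA had in these shares was not tested.

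**Figure D5:**
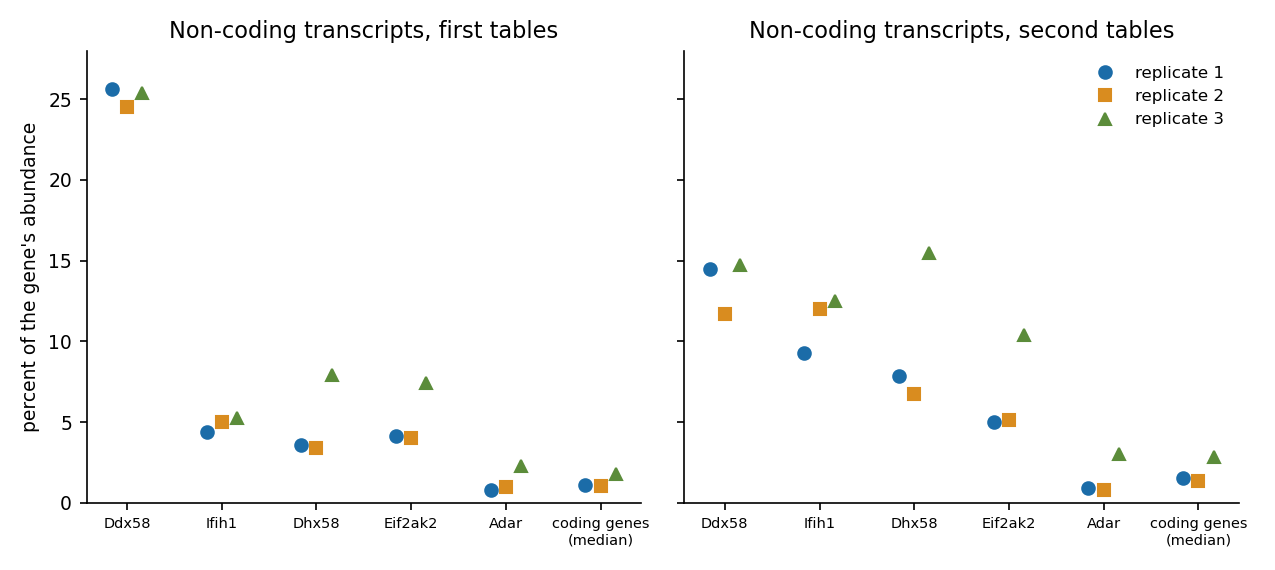
Percent of gene abundance in transcripts annotated as non-coding or intron-retaining, per library, in both sets of tables. The median is over coding genes with mean TPM 10 or more and some such share. For Dhx58, Eif2ak2 and Adar replicate 3 stands apart from the other libraries in both sets, and Ddx58 has the largest share in the first tables.

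Genes around the members were counted from lists chosen by function. Beside each count above 1 TPM that follows stands the 44.5% of all genes tested that were above it. Of 20 genes that regulate RNA sensing, 18 stood above 1 TPM and 2 below it (limma, adjusted p under 0.05), with a median of 25.3 TPM beside 0.68 for all genes tested. Oasl2 and Oasl1, relatives of the oligoadenylate synthetases, were highest at 177 ± 21.1 and 139 ± 41.3 TPM (SD, n = 3). The ubiquitin ligases known to activate RIG-I, Trim25 and Rnf135 (Riplet), stood at 46.7 ± 6.64 and 12.8 ± 4.15 TPM, and the ligase Rnf125, known to mark it for decay, was the lowest at 0.0267 ± 0.0208. Ddx60, like Ddx58 and Ifih1, was highest in replicate 1 and lowest in replicate 2, at 46.5, 22.6 and 30 TPM in replicates 1, 2 and 3.

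Of 29 genes listed for Mavs signalling, regulators of Mavs included, 28 exceeded 1 TPM (27 by the second route). The median was 10.1 TPM, and Trim31 was listed at 0. The transcription factor gene Irf7 was highest at 944, 555 and 587 TPM in replicates 1, 2 and 3, whereas Irf3, its constitutive relative, stood at 9.85, 10.5 and 10.1 TPM. Pcbp2, whose product is known to promote decay of Mavs, was the second highest at 178 ± 23.3 TPM (SD, n = 3). The kinase genes Ikbke and Tbk1 stood at 52.3 ± 8.09 and 26.3 ± 3.88 TPM. Ifnb1, the product gene of the pathway, stood at 9.78, 5.09 and 2.06 TPM, highest in replicate 1 like the sensors but, unlike Ddx58 and Ifih1, lowest in replicate 3. The lowest measured gene of the list was Tbkbp1 at 2.96 ± 0.284 TPM.

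Among 18 other sensors of nucleic acid, 17 exceeded 1 TPM (16 by the second route) and Zcchc3 below it at 0.107 ± 0.0551 TPM. Ifit3 and Ifi204 were highest at 574 ± 164 and 281 ± 59.8 TPM. Sensors of DNA stood at unlike levels: the cyclic GMP-AMP synthase gene Cgas at 3.36 ± 0.817, Tmem173, which encodes STING downstream of it, at 10.4 ± 1.21, and Aim2, a sensor that forms inflammasomes, at 38.5 ± 5.18 TPM. Members of multigene families such as Ifit, Oas and Ifi200 share reads, and their levels are uncertain.

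Of the genes of its family counted here, only Adar stood above 1 TPM. Adarb1 stood below 1 TPM at 0.0167 ± 0.00577, and Adarb2, Adad1 and Adad2 were listed at 0. Zbp1, which senses Z-form RNA that the long form of Adar also binds, stood at 220, 154 and 149 TPM in replicates 1, 2 and 3. Dicer1 and Aimp2, also on the list, were lower at 6.30 ± 0.817 and 2.31 ± 0.0513 TPM (SD, n = 3). Of the 8 genes of this list, 4 stood above 1 TPM and 1 below it (3 above in the second tables).

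Eif2ak2 was also the most abundant of the kinases that phosphorylate eIF2α. Eif2ak1, which responds to lack of haem, stood at 8.68 ± 0.719, Eif2ak4, which responds to lack of amino acids, at 2.36 ± 0.0529, and Eif2ak3, which responds to unfolded proteins, at 1.43 ± 0.142 TPM (SD, n = 3). The lowest library of Eif2ak2, at 31.8 TPM, lay above the highest of each of these. All 15 genes of the eIF2 list exceeded 1 TPM (13 by the second route and 14 without replicate 3), with a median of 18.2 TPM. The highest were Ppp1r15a, the stress-induced subunit that reverses eIF2α phosphorylation, at 299, 371 and 150 TPM in replicates 1, 2 and 3, and Ddit3 at 115 ± 23.8. The substrate Eif2s1 stood at 18.8 ± 3.38 TPM with its partners Eif2s2 at 39.1 ± 5.15 and Eif2s3x at 29.3 ± 3.62. The exchange factor genes Eif2b1 and Eif2b5 stood at 5.63 ± 0.268 and 8.17 ± 0.322, the kinase inhibitor Dnajc3 at 9.22 ± 0.247, the kinase activator Prkra at 5.67 ± 0.833, and Atf4 at 102 ± 13.0 TPM. Nck1 stood at 18.2 ± 6.16 and Ppp1r15b at 26.9 ± 5.13 TPM.

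Mutations of Trex1, Adar, Ifih1, Samhd1 and the subunits of ribonuclease H2 are known causes of Aicardi-Goutières syndrome, an inherited interferon disease, and their mouse genes differed widely in level. Samhd1, which removes deoxynucleotides, stood at 448, 317 and 328 TPM in replicates 1, 2 and 3, above Trex1 in each. Rnaseh2a, Rnaseh2b and Rnaseh2c stood at 9.86 ± 0.22, 5.54 ± 0.54 and 5.39 ± 1.15 TPM (SD, n = 3). Lsm11 stood below 1 TPM at 0.39 ± 0.0794.

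Of the 16 genes in the nuclease list, 13 stood above 1 TPM and 1 below it. Dnase1l3 was not placed at 0.653 ± 0.378 (adjusted p = 0.059, limma), and Trex2, the close relative of Trex1, was listed at 0. Pld3 stood at 150 ± 5.75 TPM, Pld4 at 148 ± 25.8, Rnaset2b at 105 ± 10.9, Rnaset2a at 40.5 ± 4.61 and Dnase2a at 31.1 ± 1.22 TPM. Set, Apex1 and Nme1, which act with Trex1 in a complex, stood at 59.8 ± 6.78, 4.34 ± 0.612 and 8.52 ± 0.70 TPM, and Rnaseh1 at 4.37 ± 0.56. Rnaset2a and Rnaset2b are near copies, so their division is uncertain.

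The genes whose deviations over the 3 libraries lay nearest to each member were found by Euclidean distance on log2(TPM + 1), among 4132 genes with mean TPM 10 or more, which is a description over 3 points. Helz2, a helicase coactivator, lay nearest to Ddx58 at 31.4, 19.4 and 21.9 TPM (distance 0.0121), followed by March1 (0.021). Cln8 (0.0196) and the inflammasome adaptor gene Pycard (0.0209) lay nearest to Ifih1. Ppt1 (0.0037) and Csnk1d (0.0057) lay nearest to Dhx58, Tmem222 and Glyr1 (both 0.0024) to Eif2ak2, and Pde7b (0.0016) and Clptm1 (0.0102) to Adar. Strn4 (0.0124) and Slc39a7 (0.0128) lay nearest to Mavs, and Bmi1 (0.0034) and Atox1 (0.006) to Trex1.

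Within the 7 members, Dhx58 and Eif2ak2 were nearest to each other (0.03), and Ddx58 and Ifih1 formed the next pair (0.10). Ifih1 and Mavs lay farthest apart (0.52). The nearest member lay at 0.21 from Mavs and at 0.24 from Trex1. These distances were taken on TPM alone. On that scale the median gene stood 0.19 higher (log2) in replicate 1 than in the mean of replicates 2 and 3. In deviations from its own mean on the log2 scale, Trex1 stood at 0.27, 0.01 and −0.28 in replicates 1, 2 and 3, whereas Adar stood at 0.30, −0.26 and −0.04.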

How the data were processed

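Total RNA was sequenced from 3 libraries of 1 group, and tables on mm10 with GENCODE M21 were deposited per library. Expected counts were deposited by the authors per gene and transcript after alignment to the transcriptome, as the deposited text and the file headers say. TPM values and the percent of gene abundance per transcript were computed by the authors, per the file headers. A second set of transcript tables, with its own estimated counts and TPM, was made from the reads. Which tools, versions and strandedness were used is not given in the sources used here. TPM falls for all messenger RNA when small RNA takes more reads, so rescaled values were also computed.

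Symbols came from the second tables, and coordinates from the M21 annotation. Control and numbered entries were left out (0.378%, 0.0931% and 0.0772% of counts in replicates 1, 2 and 3). Levels were tested with limma 3.58.1 (R 4.3.3) by an intercept-only fit of log2(TPM + 1) against 1 TPM over 20685 genes. A chi-square test on rounded counts, run where a gene summed to 30 counts or more, gave variation beyond counting noise. Both used Benjamini-Hochberg adjustment over all genes and a threshold of 0.05, and both were tested on simulated data. TMM factors came from edgeR 4.0.16 and size factors from DESeq2 1.42.0. Other work used pandas 2.3.3, numpy 2.4.6, scipy 1.17.1 and matplotlib 3.10.9.

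Named genes were the 7 members, the 2 highest and the lowest measured gene of each of 6 lists, all genes of the ADAR, eIF2 and nuclease lists (except 1 of the ADAR list, not reported here), and the 2 genes nearest to each member. Trim25, Rnf135, Ddx60, Prkra, Irf3, Ikbke, Tbk1, Ifnb1, Cgas, Tmem173 and Aim2 were named for their roles after their values were seen, and the motifs, the ratios between members or transcripts and the non-coding shares were likewise chosen then. Members and lists were chosen with earlier results of these data known.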

Additional observations from a re-analysis of the deposited data

How the results depend on the processing

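All 7 members stayed above the level tested under each of the 8 alternatives run, with adjusted p of at most 0.0020 (limma). The alternatives were pseudocount 0.1, mean count 10 or more, a 5 TPM level, the second tables, rescaled TPM and each library left out. Log2 differences ran from 1.02 (Mavs against 5 TPM) to 8.23 (Trex1 against 1 TPM, rescaled). Against 1 TPM the lowest was 1.56 (Mavs, second tables). The number varying beyond counting noise was 7 under TMM, DESeq2 size factors, other count minimums and the second tables, and 5 to 6 with a library left out. Of all genes tested, 45.5% to 72.1% varied under the former settings and 51.3% to 53.9% with a library left out. Mean TPM of every member moved by more than its SD in the second tables and after rescaling. Rescaling changes the scale by construction, and the cause in the second tables was not tested. The order of neighbours held in every library for 5 of 6 pairs in the second tables, where Ifih1 exceeded Dhx58 (log2 ratio of Dhx58 to Ifih1 −0.16 ± 0.19, against 0.06 ± 0.24). The leading transcript was the same for 5 of 7 members in the second tables and for all 7 with a library left out or by expected counts. The second tables for non-coding shares were an alternative chosen after seeing the data. No paired analysis was possible because there is only 1 group. With 3 libraries the number of samples, not depth, limits precision.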
